A study of Homo sapiens with 8 samples.

Results

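The Hedgehog pathway genes GLI1, GLI2, GLI3, PTCH1, SMO, SUFU and HHIP were examined in A673, a long-established line of Ewing Sarcoma cells, after treatment with JIB-04. They were taken by gene symbol from a table of 65975 Ensembl genes, in which 7 of 7 symbols were found, each with a single identifier. JIB-04 is a small-molecule inhibitor of Jumonji-domain histone demethylases. For 36 hours the cells received either DMSO as vehicle or JIB-04 at 2 μM, and polyadenylated RNA of 4 samples per group was sequenced. All 8 samples come from this 1 cell line, the labels name no other treatment, and neither the labels nor the study's methods say that the quadruplicates were separate cultures. The p-values therefore measure the spread between these samples, which may be technical.

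In Hedgehog signaling a secreted ligand binds PTCH1, a membrane receptor that otherwise holds the transducer SMO inactive. Released SMO acts at the primary cilium, where the GLI transcription factors are freed from their inhibitor SUFU. GLI2 and GLI3 can be full-length activators or processed repressors, whereas GLI1 acts as an activator and, like PTCH1 and HHIP, is a target gene of the pathway in many cells. HHIP is a membrane protein that binds the ligands and removes them from the receptor. In Ewing Sarcoma, GLI1 has been described as a gene activated by the EWS/FLI1 fusion and as growth-promoting.

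JIB-04 lowered the expression of 6 of the 6 Hedgehog pathway genes that were abundant enough to test, PTCH1 by little and not under every scaling, while HHIP, the low-level ligand antagonist, was higher. SMO fell most, from 42.2 ± 2.22 to 8.27 ± 0.575 FPKM (means are given with the SD of 4 samples throughout). It was followed by GLI1, GLI2 and GLI3, where the order of GLI2 and GLI3 depended on the processing, while SUFU and PTCH1 fell least. FPKM, calculated by the authors, are read numbers scaled by transcript length and library depth. Genes averaging 1 FPKM or more across all 8 libraries were compared by limma on log2(FPKM + 0.5), with Benjamini-Hochberg adjustment over all 17460 such genes and a threshold of 0.05, and log2 fold changes are on that scale. The background is high. With JIB-04, 38.0% of all tested genes were called lower and 34.2% higher, and 72.2% were called in either direction. Among the Hedgehog genes, 3 (SMO, GLI1 and GLI2) were lower by 2-fold or more on this scale, against 11.8% of all genes. GLI2 (-1.04) and GLI3 (-0.99) lie close to that cut, so the count depends on the scale.

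The genes lie on chromosomes 2 (GLI2), 4 (HHIP), 7 (SMO and GLI3), 9 (PTCH1), 10 (SUFU) and 12 (GLI1), so that only SMO and GLI3 share a chromosome. RefSeq promoter windows on GRCh38.p14, each running from 250 bases before to 50 bases after a transcription start, were matched for 5 of the 7 genes, with 10 windows in all. No window was available for GLI1 and GLI3, and PTCH1 had the most windows. Those of SMO, PTCH1 and HHIP are shown, as the gene that fell most, the receptor with a GLI motif in its promoter and the gene that was higher. The SMO window lies upstream of the first exon at chr7:129188383-129188632 on the plus strand and is 73.6% G and C. The PTCH1 window, chr9:95509267-95509516 on the minus strand, lies before the start of an alternative transcript and overlaps no annotated exon, and its capitals mark the GLI motif. For HHIP the stretch before the annotated transcript is given, chr4:144645906-144646020 on the plus strand, where an exon of the antisense gene HHIP-AS1 also lies.
SMO promoter: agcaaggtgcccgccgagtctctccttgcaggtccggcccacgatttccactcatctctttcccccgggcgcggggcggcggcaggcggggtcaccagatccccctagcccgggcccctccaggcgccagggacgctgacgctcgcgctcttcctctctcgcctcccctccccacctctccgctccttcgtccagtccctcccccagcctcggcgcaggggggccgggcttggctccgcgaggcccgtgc
PTCH1 promoter: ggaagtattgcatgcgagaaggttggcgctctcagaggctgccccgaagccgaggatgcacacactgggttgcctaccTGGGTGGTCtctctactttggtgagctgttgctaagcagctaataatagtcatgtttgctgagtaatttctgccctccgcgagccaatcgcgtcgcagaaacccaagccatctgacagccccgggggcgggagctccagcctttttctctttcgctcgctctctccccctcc
HHIP promoter: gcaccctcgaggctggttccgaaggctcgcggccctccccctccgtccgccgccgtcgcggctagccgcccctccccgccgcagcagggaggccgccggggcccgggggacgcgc

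The windows were searched on both strands for GACCACCCA, the core of the GLI binding motif, whose reverse complement is TGGGTGGTC. It was found in 1 of the 10 windows, the PTCH1 window printed above, 172 bases before the start site in the reverse orientation. Of 35116 promoters in the RefSeq table, 0.236% hold it. GGAAGGAA, a tandem ETS core with the reverse complement TTCCTTCC, was searched because the EWS/FLI1 fusion carries an ETS domain, and it was found in 0 of the 10 windows and in 3.67% of all promoters. These matches describe the letters of the windows only. The promoters of GLI1 and GLI3, which had no window, were searched for neither motif.

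The steps between the lowest FPKM, each worth 1 read, put the depth relative to the first vehicle library at 0.824 to 0.958 in the other vehicle libraries and at 0.759 to 0.939 in the JIB-04 libraries. The FPKM of all genes summed to 1346289 to 1370436 with vehicle and to 1175407 to 1237186 with JIB-04, so that rescaling to a common sum (TPM) raises the median fold change over all genes by 0.15 on the log2 scale, from -0.07. All 10 Ewing Sarcoma markers were expressed, of which 3 were higher, 6 lower and 1 did not pass with JIB-04. Over all tested genes, 34.2% were higher and 38.0% lower. Of 12 markers of other cell types, 8 had a mean under 1 FPKM, and MYOD1 and CD3E were listed at 0 in every vehicle library. Of the 4 tested, KRT8, SNAP25 and ITGAM were higher and KRT18 was lower with JIB-04, and the part of such markers in the results was not tested. The summed level of the 12 was 322 to 343 FPKM with vehicle and 327 to 341 FPKM with JIB-04, most of it KRT18. In these bulk samples, fewer cells that express a gene and less RNA per cell cannot be told apart.

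**Figure D1:**
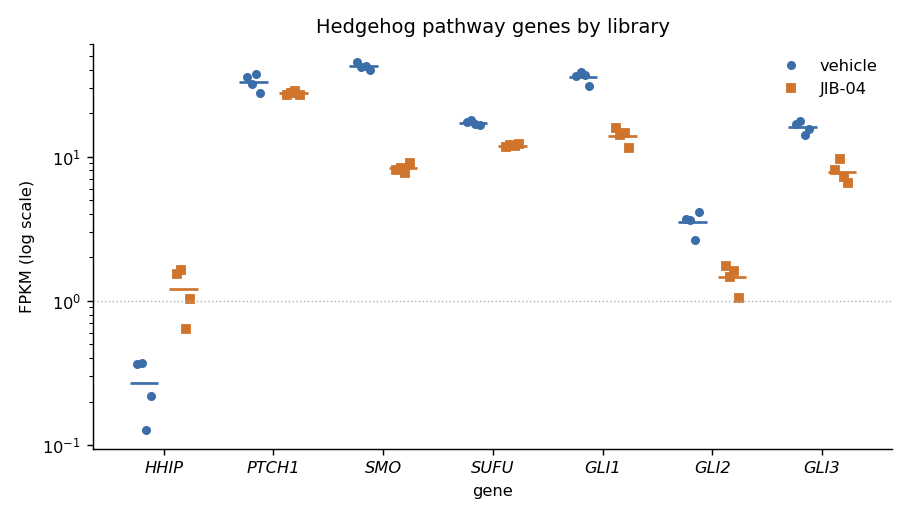
FPKM of the 7 Hedgehog pathway genes in each library on a log axis, with 4 vehicle (circles) and 4 JIB-04 (squares) points per gene, a bar at each group mean and a dotted line at 1 FPKM. The JIB-04 points lie below all vehicle points for SMO, GLI1, GLI2, GLI3 and SUFU, above them for HHIP, and overlap them for PTCH1.

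SMO, the seven-transmembrane transducer of the signal (ENSG00000128602, chr7:129188872-129213545 in GRCh38, plus strand), was the most abundant of these genes in vehicle-treated cells. The 4 vehicle libraries had 44.9, 41.8, 42.4 and 39.5 FPKM, and the 4 JIB-04 libraries had 8.05, 8.33, 7.66 and 9.02 FPKM. The groups were far apart, and the highest JIB-04 library lay well under the lowest vehicle library. The log2 fold change was -2.28 (standard error 0.07, 95% interval -2.44 to -2.13, limma adjusted p = 8.48e-09), and the JIB-04 mean was 19.6% of the vehicle mean. Only 0.750% of the tested genes had a fold change as low or lower.

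GLI1, the transcriptional activator that ends the pathway (ENSG00000111087, chr12:57460135-57472262, plus strand), was one of the genes the study picked out from these libraries, so its direction here is not independent of that choice. Vehicle-treated cells had 36.4, 38.7, 36.8 and 30.9 FPKM, and JIB-04-treated cells had 15.7, 14.1, 14.7 and 11.4 FPKM. In both groups the fourth library was the lowest, and the groups did not overlap. From 35.7 ± 3.39 FPKM the mean fell to 14.0 ± 1.81 FPKM, a log2 fold change of -1.33 (standard error 0.11, interval -1.57 to -1.09, limma adjusted p = 3.14e-06). The gene ARHGAP9, on the opposite strand, overlaps the end of GLI1 by a few bases, and at 0.388 ± 0.119 and 1.23 ± 0.406 FPKM it was far below GLI1 in both groups.

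The study also measured GLI1 by qRT-PCR, and its primers show which part of the gene that assay reads. They place a product of 91 bases across the first intron, between exon 1 and exon 2, and match 4 of the 8 annotated GLI1 transcripts. One primer lies in the coding part of exon 2 (chr12:57463719-57463738, antisense), and the other at the end of exon 1 in the 5′ untranslated region (chr12:57460185-57460201, sense). The study states that qRT-PCR of a chosen subset of genes in A673 cells bore out their RNA-seq changes, and its text gives no value for GLI1. The qRT-PCR values were not analysed here, and the FPKM of GLI1 count reads over the whole gene.
GLI1 primer in exon 2: ggctcgccatagctactgat
GLI1 primer in exon 1: ccagcgcccagacagag

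GLI2, which mainly acts as an activator (ENSG00000074047, chr2:120735623-120992653, plus strand), was far less abundant than GLI1 with vehicle. It had 3.68, 3.65, 2.65 and 4.11 FPKM with vehicle and 1.73, 1.45, 1.62 and 1.04 FPKM with JIB-04. Its groups did not overlap, although the third vehicle library was closer to the JIB-04 libraries than the others were. The mean fell from 3.53 ± 0.619 to 1.46 ± 0.303 FPKM, and its log2 fold change was -1.04 (standard error 0.17, interval -1.42 to -0.66, limma adjusted p = 0.000373). Over all genes the fold change fell with rising GC content of the transcript (Spearman rho -0.30 over genes, which are not independent replicates), and GLI2 at 60.8% GC had a log2 fold change of -0.67 (limma adjusted p = 0.00408) once that trend was removed.

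GLI3, the main source of the GLI repressor (ENSG00000106571, chr7:41960950-42237870, minus strand), was measured at 16.9, 17.5, 14.2 and 15.6 FPKM with vehicle and at 8.06, 9.66, 7.20 and 6.53 FPKM with JIB-04. The groups did not overlap. GLI3 fell from 16.03 ± 1.47 to 7.86 ± 1.35 FPKM, and its log2 fold change was -0.99 (standard error 0.12, interval -1.27 to -0.72, limma adjusted p = 5.57e-05). Its transcript is 50.7% GC, the lowest of the GLI genes, and its fold change with the GC trend removed was -0.91.

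SUFU, the cytoplasmic inhibitor that binds GLI proteins (ENSG00000107882, chr10:102503987-102633535, plus strand), varied least among replicates. Vehicle libraries gave 17.4, 17.9, 16.7 and 16.6 FPKM, and JIB-04 libraries 11.6, 12.1, 11.7 and 12.1 FPKM. Although the change was small, the groups were clearly apart. The mean fell from 17.1 ± 0.602 to 11.9 ± 0.235 FPKM, to 69.4% of vehicle (log2 fold change -0.51, standard error 0.06, interval -0.64 to -0.38, limma adjusted p = 2.84e-05). With the GC trend removed the log2 fold change was -0.25 (limma adjusted p = 0.00221), and 29.04% of tested genes had a fold change as low as that of SUFU or lower before the removal.

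PTCH1, the ligand receptor and a feedback target of the pathway (ENSG00000185920, chr9:95442980-95517057, minus strand), kept most of its level. Vehicle libraries had 35.8, 32.0, 37.1 and 27.6 FPKM, and JIB-04 libraries 26.9, 27.6, 28.3 and 26.7 FPKM. The fourth vehicle library lay within the JIB-04 range, so the groups overlapped. The mean fell from 33.1 ± 4.28 to 27.4 ± 0.738 FPKM, a log2 fold change of -0.26 (standard error 0.09, interval -0.47 to -0.06, limma adjusted p = 0.0253), whereas the exact two-sided permutation test gave p = 0.0857. The call ended on rescaling to TPM (log2 fold change -0.10, limma adjusted p = 0.348), on median-ratio scaling (-0.20) and in a per-gene analysis of variance, and without vehicle replicate 1 (-0.22), vehicle replicate 3 (-0.20), JIB-04 replicate 1 (-0.25) or JIB-04 replicate 4 (-0.25). The antisense genes RP11-435O5.4 (1.82 ± 0.701 FPKM with vehicle, 0.789 ± 0.599 with JIB-04) and RP11-435O5.5 (1.12 ± 0.396 and 0.396 ± 0.0776) overlap PTCH1, and no source used here states whether the authors' counting used strand.

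HHIP, the ligand-binding antagonist (ENSG00000164161, chr4:144646021-144745271, plus strand), was the only Hedgehog gene of the 7 with a higher mean after JIB-04. Its vehicle libraries had 0.367, 0.372, 0.126 and 0.218 FPKM, and its JIB-04 libraries 1.54, 1.63, 0.641 and 1.04 FPKM. The groups did not overlap, and in each of them the third library was the lowest. The mean was 0.271 ± 0.120 FPKM with vehicle and 1.21 ± 0.462 FPKM with JIB-04, a ratio of 4.47 (exact two-sided permutation p = 0.0286, the smallest that 4 against 4 samples allow). A mean of 0.741 FPKM over all libraries kept it out of the limma comparison, and on log2(FPKM + 0.5) the difference was 1.12. When the filter was set on the higher group mean instead, which admits a gene through the group where it is high, HHIP was higher with a limma adjusted p of 0.00216, as were 34.8% of the 18483 genes tested under that filter. If all of its reads came from the longest transcript of 10072 bases, they would number, at the depth estimated from those steps, about 91, 76, 30 and 47 with vehicle and 309, 311, 120 and 240 with JIB-04. The antisense gene HHIP-AS1 overlaps the start of HHIP, and its values overlapped between the groups. It had 0.520, 0.460, 0.446 and 0.548 FPKM with vehicle and 0.973, 0.120, 0.671 and 0.1003 FPKM with JIB-04.

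**Figure D2:**
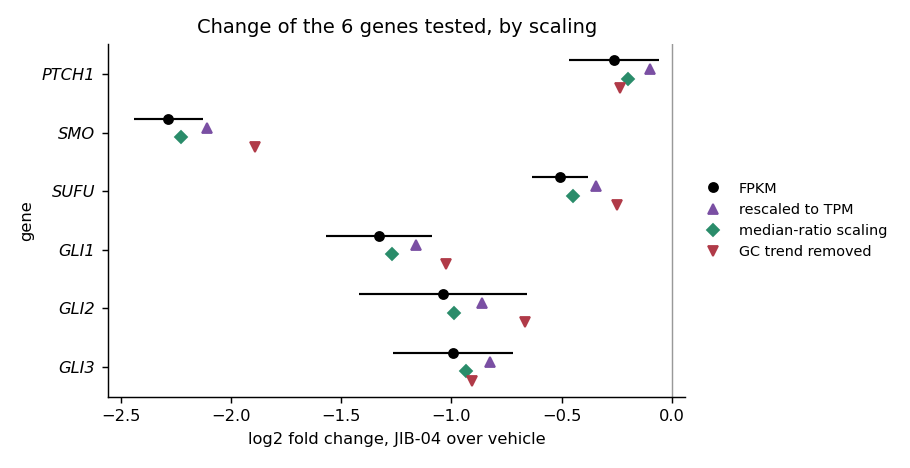
Log2 fold change, JIB-04 over vehicle, of the 6 tested Hedgehog genes from FPKM (circles, with the limma 95% interval), after rescaling to TPM, after median-ratio scaling and with the GC trend removed. All points lie below 0, SMO from -2.28 to -1.89 and PTCH1 from -0.26 to -0.10.

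The exact permutation test gave p = 0.0286 for SMO, GLI1, GLI2, GLI3, SUFU and HHIP. JIB-04 libraries lay wholly below vehicle libraries for 5 of the 7 genes, as they did for 35.4% of all tested genes. They lay wholly above for 1, HHIP, beside 31.9% of all tested genes, which do not include HHIP. Groups did not overlap in either direction for 67.3% of all genes.

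The order of the genes by level changed with treatment. With vehicle, SMO came first, then GLI1 and PTCH1, whose libraries overlapped, then SUFU and GLI3, which also overlapped, then GLI2 and last HHIP. With JIB-04, PTCH1 came first, clear of GLI1, which overlapped with SUFU. SMO came next, overlapping with GLI3, and GLI2 overlapped with HHIP at the low end. All of these are FPKM, a scale that takes account of transcript length.

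Whether the genes differed in their response was tested on the difference between their log2(FPKM + 0.5) values in each library, by exact two-sided permutation over the 8 libraries, with Benjamini-Hochberg adjustment over the 15 pairs of the 6 tested genes. For 10 of the 15 pairs the difference passed, each at an exact permutation p of 0.0286 (adjusted p = 0.0429). That p is the smallest possible, so the adjusted value rests on how many pairs reached it. How often pairs of other genes would pass was not computed. The count therefore does not show that the Hedgehog genes differ among themselves more than other genes do. The pairs were recomputed with other pseudocounts only, not with the GC trend removed. With that trend removed, single-gene log2 fold changes were -1.89 for SMO, -1.03 for GLI1 and -0.91 for GLI3. They were -0.67 for GLI2, -0.25 for SUFU and -0.24 for PTCH1, so that several differences are smaller there. SMO fell by more than each of the other 5 genes. Its log2 fold change was lower than that of GLI1 by 0.96 (standard error 0.15, interval 0.60 to 1.32), than that of GLI2 by 1.24 (interval 0.73 to 1.76), than that of GLI3 by 1.29 (interval 0.92 to 1.66), and than that of its inhibitor PTCH1 by 2.02 (standard error 0.09, interval 1.80 to 2.25). SMO minus SUFU was -1.78 (interval -1.90 to -1.65). At the other end, PTCH1 fell less than GLI1, GLI2 and GLI3, with GLI1 minus PTCH1 at -1.07 (interval -1.33 to -0.80), GLI2 minus PTCH1 at -0.78 (-1.34 to -0.22) and GLI3 minus PTCH1 at -0.73 (-1.14 to -0.32). Of these, GLI2 minus PTCH1 missed the threshold with a pseudocount of 1 (-0.62, adjusted exact permutation p = 0.0612). SUFU fell less than GLI1 (GLI1 minus SUFU -0.82, interval -1.11 to -0.53) and GLI3 (GLI3 minus SUFU -0.48, interval -0.79 to -0.18).

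None of the 3 pairs among the GLI genes passed. The change of GLI1 minus that of GLI3 was -0.34 (interval -0.65 to -0.02, exact permutation p = 0.0571, adjusted p = 0.0659), and that of GLI1 minus that of GLI2 was -0.29 (interval -0.70 to 0.12, adjusted p = 0.153 by the exact permutation test). With a pseudocount of 1 in place of 0.5 both of these passed, at -0.35 and -0.42, each with an adjusted exact permutation p of 0.0390. With 0.1 neither passed, GLI1 minus GLI3 at -0.32 (adjusted exact permutation p = 0.0659) and GLI1 minus GLI2 at -0.13 (0.571). The differences that involve GLI2, at low FPKM, thus depend on the pseudocount, and GLI2 minus GLI3 was -0.19 with 0.1 and 0.07 with 1. GLI2 minus GLI3 was -0.05, with an interval of -0.41 to 0.32 and an exact permutation p of 0.771. A missed threshold does not show that these genes respond alike. PTCH1 against SUFU (0.25, interval 0.01 to 0.48) and GLI2 against SUFU (-0.53, interval -0.96 to -0.11) also missed the threshold, both at an adjusted exact permutation p of 0.0659.

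**Figure D3:**
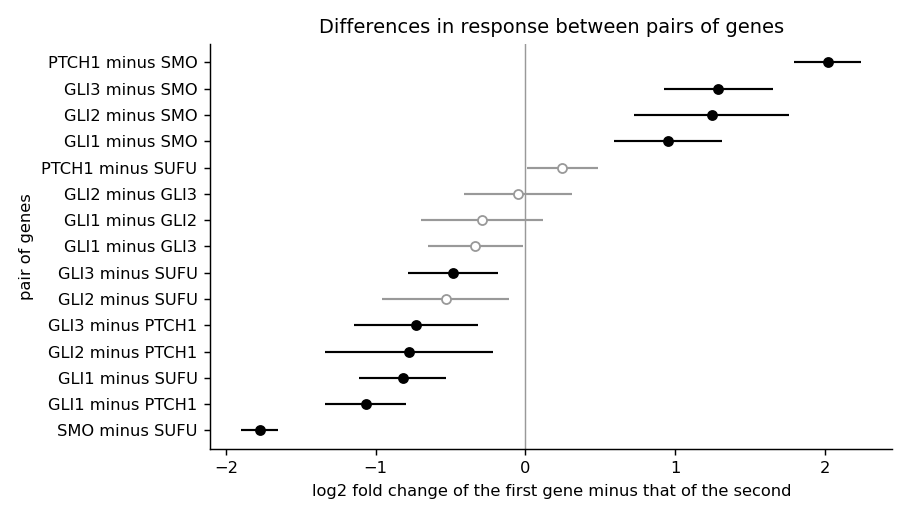
Difference in log2 fold change between the genes of each of the 15 pairs, with its unadjusted 95% Student t interval. Points are filled where the adjusted exact permutation p passed the threshold of 0.05 and open where it did not. PTCH1 minus SMO lies farthest from 0, at 2.02, and the interval of GLI2 minus GLI3 spans 0.

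The summed level of GLI1, GLI2 and GLI3 was 50.6 to 59.9 FPKM in the vehicle libraries and 19.0 to 25.5 FPKM in the JIB-04 libraries. Within that sum, GLI1 made up 64.6 ± 3.14% with vehicle and 60.0 ± 2.90% with JIB-04. GLI3, the main repressor gene, made up 29.03 ± 1.87% and 33.8 ± 3.43%, and GLI2 6.41 ± 1.32% and 6.23 ± 0.726%. For all 3 genes the shares overlapped between groups, GLI1 ranging from 61.0% to 68.6% with vehicle and from 55.9% to 62.4% with JIB-04, and GLI3 from 26.4% to 30.9% and from 30.7% to 38.3%. The sum was thus separated between the groups, and the proportions were not.

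**Figure D4:**
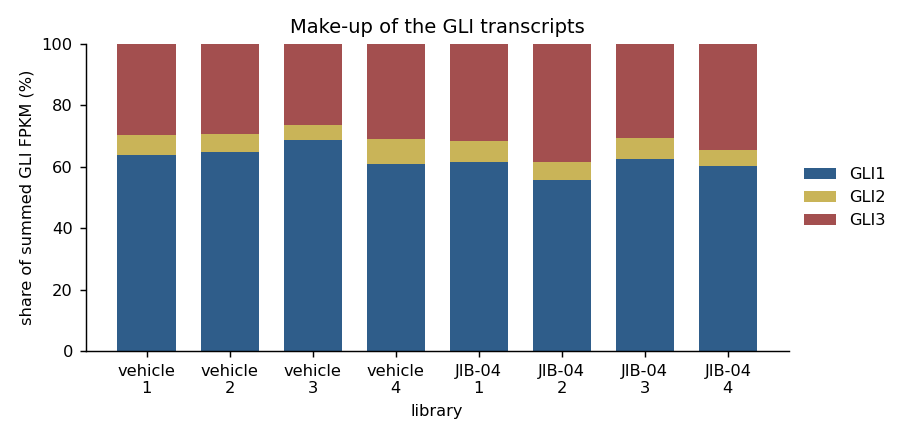
Stacked bars of the share of GLI1, GLI2 and GLI3 in their summed FPKM, in percent, for each of the 8 libraries. GLI1 holds 55.9% to 68.6% and GLI3 26.4% to 38.3% over the libraries.

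The remaining genes of the pathway were read from 6 lists by role, holding 88 genes, of which 74 were tested. With JIB-04, 33 of these were lower, 28 higher and 13 not past the threshold, beside 38.0% lower and 34.2% higher over all tested genes, and their median log2 fold change was -0.09, beside -0.07. The counts of each list are to be read against those same shares. Of 11 genes for proteins that work with SMO at the membrane, 7 were lower and 1 was higher, with a median of -0.64, where 38.0% of all tested genes were lower and 34.2% higher. GPR161, a ciliary receptor that keeps the pathway off, fell from 14.4 ± 1.01 to 4.38 ± 0.533 FPKM (log2 fold change -1.62, limma adjusted p = 4.79e-07). ARRB1, a beta-arrestin, fell from 50.05 ± 3.29 to 16.5 ± 0.832 FPKM (-1.57, limma adjusted p = 4.35e-08), and ADRBK1, the kinase GRK2 that phosphorylates SMO, fell from 84.1 ± 6.63 to 34.97 ± 1.26 FPKM (-1.25). EFCAB7 was higher (log2 fold change 0.44, limma adjusted p = 0.00532), while EVC (-0.07), EVC2 (0.04) and MGRN1 (-0.05) did not pass.

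Of 6 receptors and coreceptors beside PTCH1, 3 were tested, of which 2 were lower and 1 higher. GAS1, a membrane coreceptor that helps ligand bind PTCH1, fell from 39.0 ± 3.73 to 11.98 ± 0.863 FPKM (log2 fold change -1.66, limma adjusted p = 1.32e-07). CDON, another coreceptor, fell from 9.72 ± 1.09 to 5.60 ± 1.373 FPKM (-0.77, limma adjusted p = 0.00191). BOC, its relative, rose from 0.887 ± 0.400 to 2.03 ± 0.656 FPKM (0.87, limma adjusted p = 0.0109), although its groups overlapped. GPC3 had 0.219 and 0.262 FPKM, and LRP2 was listed at 0 in every vehicle library and had 0.144, 0.0206, 0.0289 and 0.230 FPKM with JIB-04.

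Genes for the ligands and their release were little expressed, and only 3 of 9 were tested. HHAT, which attaches palmitate to the ligands, rose from 1.67 ± 0.244 to 2.54 ± 0.261 FPKM (log2 fold change 0.49, limma adjusted p = 0.00729). DISP1, which releases them from the cell, fell from 1.495 ± 0.203 to 1.01 ± 0.126 FPKM (-0.40, limma adjusted p = 0.0315), and that call was lost without vehicle replicate 3 or 4 and without JIB-04 replicate 3 or 4, on TPM rescaling and with a replicate block. SCUBE1, a secreted protein that aids release, had 1.42 ± 0.558 and 0.799 ± 0.427 FPKM and did not pass.

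The 20 genes for GLI phosphorylation, processing and turnover were split evenly, with 8 higher, 8 lower and 4 not passing, and a median of 0.01. CSNK1D, a casein kinase isoform whose family phosphorylates GLI proteins, increased from 139 ± 9.36 to 279 ± 10.7 FPKM (log2 fold change 1.01, limma adjusted p = 2.58e-07). PRKACA, a catalytic subunit of protein kinase A, which primes GLI2 and GLI3 for processing, fell from 74.8 ± 1.82 to 40.4 ± 0.850 FPKM (-0.88), and HDAC1, which deacetylates GLI1 and GLI2, from 183 ± 8.89 to 99.6 ± 5.25 FPKM (-0.87). PRKACB (0.07), GSK3A (-0.04), CSNK1E (-0.11) and BTRC (0.20) did not pass.

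Genes of the primary cilium and of intraflagellar transport had 13 of 29 members higher, 11 lower and 5 not passing, with a median of 0.20, beside 34.2% higher and 38.0% lower over all tested genes. B9D1, of the ciliary transition zone, fell from 41.6 ± 1.12 to 13.7 ± 1.80 FPKM (log2 fold change -1.58). INTU, of the planar polarity proteins that act in cilium formation, rose from 4.39 ± 0.872 to 12.8 ± 1.10 FPKM (1.46). IFT88 (-0.26), IFT81 (-0.26), IFT74 (0.20), IFT80 (0.20) and DYNC2LI1 (0.26) did not pass.

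Of 13 genes known as GLI targets in other cells, 8 were tested, of which 4 were lower and 4 higher, with a median of -0.13. SNAI1, a repressor of epithelial genes, rose from 4.96 ± 0.355 to 28.4 ± 1.196 FPKM (log2 fold change 2.41, limma adjusted p = 7.64e-09). MYCN, a growth-promoting transcription factor, rose from 2.58 ± 0.283 to 12.1 ± 0.432 FPKM (2.04). FOXM1, a cell cycle transcription factor that the study named from these libraries, fell from 217 ± 8.94 to 77.4 ± 3.74 FPKM (-1.48), and CCND1, JAG2 and NKX2-2 were also lower. BCL2 and BMI1 were higher. CCND2, FOXF1, FOXF2, FOXL1 and SFRP1 were under the filter.

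**Figure D5:**
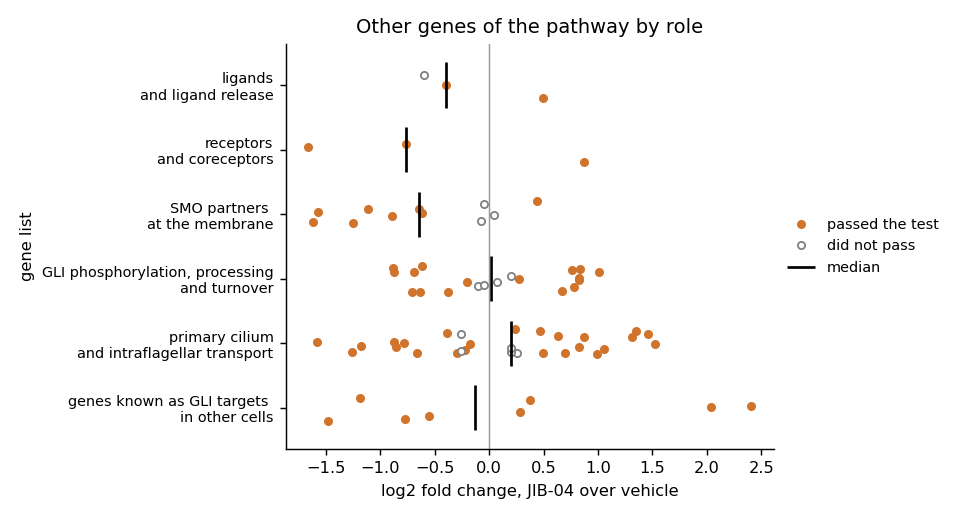
Log2 fold change, JIB-04 over vehicle, of each tested gene in the 6 lists of the wider Hedgehog pathway, filled where the gene passed the test and open where it did not, with a line at the list median (vertical position within a list carries no value). The SMO partners have a median of -0.64 and the cilium genes one of 0.20, with genes on both sides of 0 in each of the 6 lists.

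Genes next to the Hedgehog genes were also read. ACTR1A, which starts 1276 bases from SUFU on the opposite strand, fell from 177 ± 8.56 to 93.9 ± 2.66 FPKM (log2 fold change -0.91, limma adjusted p = 1.46e-07), beside -0.51 for SUFU, and TMEM180, which lies farther upstream, had a log2 fold change of -0.84 (limma adjusted p = 0.00029). Near SMO, TSPAN33 fell from 4.06 ± 0.270 to 1.60 ± 0.280 FPKM (-1.13, limma adjusted p = 3.4e-05), whereas AHCYL2 had 27.3 ± 2.46 and 27.8 ± 1.40 FPKM and did not pass (0.03, limma adjusted p = 0.766). Near GLI1, MARS had a log2 fold change of -0.49 (limma adjusted p = 0.00061) and R3HDM2 one of -0.59 (limma adjusted p = 0.00507). RPL23AP58, a pseudogene within SUFU, had 1.51 ± 1.80 and 1.65 ± 0.912 FPKM and did not pass. Beside these and the antisense gene of PTCH1 given above, no other gene with a mean of at least 1 FPKM starts within 50 kb of a start of these genes or overlaps one.

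For each tested Hedgehog gene, the genes with the most similar pattern were found among 11412 candidates with a mean of at least 5 FPKM, by the root mean square difference of log2(FPKM + 0.5), relative to the vehicle mean, over the 8 libraries. B4GAT1 (0.0486), PREX1 (0.0581) and ADA (0.0942) were nearest to SMO. GLI1 was followed most closely by NSMCE1 (0.0850) and KCNA2 (0.0902), GLI2 by MUTYH, LRRC17 and RFNG (0.0680 to 0.155), and GLI3 by LFNG, NSUN5 and LZTR1 (0.0812 to 0.0841). The genes nearest to SUFU were DNAJC11, PSMD4 and POLE3 (0.0284 to 0.0299), and those nearest to PTCH1 were MIPEP, ALG1L15P and SLC35A4 (0.0555 to 0.0665). None of these is a Hedgehog gene listed here. The likeness describes these 8 libraries, which fall into the vehicle and JIB-04 groups.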

How the data were processed

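RNA-seq was analyzed for 4 vehicle and 4 JIB-04 (2 μM, 36 hours) libraries of A673 cells. Per the labels, reads were aligned to GRCh38 with GSNAP and handled with SAMtools. The FPKM values, calculated by the authors with Cufflinks, were used as deposited. Whether counting used strand, and the number of mapped reads, are not given in the sources used here. The table holds 66095 entries for 65975 Ensembl identifiers. Entries of the 117 repeated identifiers were summed, 33 names turned into dates were restored, and 13 genes with a placeholder value were left out.

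Genes averaging 1 FPKM or more were compared on log2(FPKM + 0.5) with limma 3.58.1 (lmFit, eBayes with trend) in R 4.3.3, with Benjamini-Hochberg adjustment over all 17460 genes. The scale understates changes of genes at low levels. Single genes and differences between pairs were compared by exact permutation with scipy 1.17.1, where 0.0286 is the smallest p that 4 against 4 allow. Depth was estimated from the FPKM worth 1 read. The fit was tested on simulated data. Coordinates, GC content and neighbours come from GENCODE 29, and promoters from RefSeq. Values were handled in pandas 2.3.3 and numpy 2.4.6 (Python 3.11.15) and plotted with matplotlib 3.10.9.

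The Hedgehog genes and the lists were chosen with earlier results of these data known. Named from each of the 6 pathway lists were up to 3 genes with the largest change past the threshold, and those not passing or under the filter where these were 5 or fewer. Other genes named outside that rule (CCND1, JAG2, NKX2-2, BCL2, BMI1 and EFCAB7, and the markers KRT8, KRT18, SNAP25, ITGAM, MYOD1 and CD3E) were added after their values were seen. A few genes that the rule names are not reported here. Alternatives were other pseudocounts, filters and scalings, a per-gene analysis of variance, ratios of group means, a replicate block, removal of the GC trend and leaving out each library.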

Additional observations from a re-analysis of the deposited data

How the results depend on the processing

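SMO, GLI1, GLI3 and SUFU kept their direction and passed the threshold under each alternative run, including each left-out library, as did GLI2, except that a filter of 5 FPKM left it untested, with 5 in place of 6 Hedgehog genes called lower. PTCH1 missed it on TPM rescaling (-0.10), on median-ratio scaling (-0.20) and in the per-gene analysis of variance (-0.27, the log2 ratio of means). With each library left out in turn its log2 fold change ranged from -0.35 to -0.20, and 4 of those 8 fits missed the threshold. The cause was not tested. HHIP was not computed under the other scalings, the analysis of variance, the replicate block or the removal of the GC trend. It was higher under the pseudocounts, filters and left-out libraries for which it has a value, and its log2 difference depends on the pseudocount by construction: 1.81 with 0.1, 0.78 with 1 and 2.16 as the ratio of group means. With no filter, or when the filter applied to the higher group, 1 Hedgehog gene, HHIP, was called higher in place of 0. Among all genes, TPM rescaling gave 7061 higher and 5424 lower in place of 5964 and 6640.

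In the lists, counts that moved are those of few or low genes. Ligand and release genes called higher numbered 3 with no filter, 0 with a filter of 5 FPKM and 2 with the filter applied to the higher group, in place of 1. Those called lower numbered 0 in place of 1 with the filter of 5 FPKM, on TPM rescaling and with the replicate block, and 0 to 1 with libraries left out. Receptors called higher numbered 0 with the filter of 5 FPKM, SMO partners called higher 2 with the GC trend removed, and GLI targets called higher 7 with no filter. Of the pairs, GLI2 minus SUFU passed with a pseudocount of 0.1 (-0.70), GLI1 minus GLI2 (-0.42) and GLI1 minus GLI3 (-0.35) passed with 1, and GLI2 minus PTCH1 missed with 1 (-0.62). Of the recomputed counts, these 15 moved by over 1.5 times and 289 did not.

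Vehicle and JIB-04 libraries with the same replicate number had deviations from their group means that correlated at -0.06 to 0.08. Such values show no strong effect shared by the replicate number over all genes, and cannot show whether the samples were paired. A replicate block left SMO at -2.28 (limma adjusted p = 4.19e-06) and PTCH1 at -0.26 (limma adjusted p = 0.0231), and 6 Hedgehog genes stayed called lower. In the lists, the block took away the call of DISP1 and lowered the genes of GLI phosphorylation, processing and turnover called lower from 8 to 7, and changed no other list count. No Hedgehog gene has several identifiers, so summing them gave no value. FPKM carry no counts, and the depth is an estimate. HHIP and GLI2, at the lowest levels, are the least precise.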

Other observations

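Several genes of the wider pathway had a mean under 1 FPKM and groups that did not overlap. Of all tested genes, 31.9% lay wholly above vehicle with JIB-04. That share was not computed for genes under the filter, so the genes below are not shown to stand out. SHH, a ligand, had 0.00993, 0.0362, 0.0104 and 0 FPKM with vehicle and 0.218, 0.176, 0.244 and 0.740 FPKM with JIB-04 (exact two-sided permutation p = 0.0286). IHH, another ligand, had 0.0463, 0.0846, 0 and 0.0268 FPKM with vehicle and 0.0841, 0.206, 0.179 and 0.193 FPKM with JIB-04, with overlapping groups, and DHH stayed at or below 0.0618 FPKM in every library. Among the genes known as GLI targets in other cells, FOXF2 had 0 to 0.155 FPKM with vehicle and 0.502 to 0.644 FPKM with JIB-04. FOXL1 had 0.0115 to 0.0267 and 0.287 to 0.485 FPKM, and CCND2, a D-type cyclin, 0.0770 to 0.451 and 0.577 to 1.21 FPKM. LRP2, an endocytic receptor, was listed at 0 in every vehicle library and had 0.0206 to 0.230 FPKM with JIB-04, and SCUBE3 had 0 to 0.00614 and 0.00663 to 0.0173 FPKM. FOXF2, FOXL1, CCND2 and LRP2 each gave an exact permutation p of 0.0286, the smallest possible, with no adjustment for the number of genes. SCUBE3 gave the same p, but most of its values above 0 are near the FPKM of 1 read on its longest transcript. There the depth of a library sets the FPKM, so the separation of SCUBE3 is not read as a difference in expression. At these levels an FPKM rests on few reads, and a listed 0 is not shown to be an absence of reads. These genes were named after their values were seen.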
